A study of Mus musculus with 32 samples.

Results

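The 10 whole-muscle libraries of the 2-week groups fell into 2 sets that differed in the genes that record position along the body and limb, in some slow-fibre genes and in the genes of fat, macrophages and tendon. Set 1 held 6 libraries, replicates 1 to 3 of IDUX.2Weeks (mice with an inducible gene for DUX4) and replicates 1 to 3 of WT.2Weeks (wild type, without it). Set 2 held 4 libraries, replicates 4 and 5 of each group. The 10 were part of a series of 32 libraries, which also holds 8 of whole muscle at 16 weeks (IDUX.16Weeks and WT.16Weeks, 4 each) and 14 of sorted hind-limb cells. The sets were chosen by expression values of these same libraries, with Hoxd8, Tbx1 and Irx5 as their markers, and no label states the split. The titles run parallel to it: those of set 1 begin with a 3-digit number in both genotypes, those of IDUX libraries in set 2 with a 4-digit number, and those of WT libraries in set 2 with the letters WT.

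The series followed mouse muscle early and late in a disease course driven by DUX4, the transcription factor whose misexpression underlies facioscapulohumeral dystrophy. Doxycycline in the chow is the treatment named for every sample, WT included. Whole-muscle RNA was extracted with a Zymo kit, 500 ng went into each KAPA mRNA Hyper Prep library, and reads were paired and 50 bases long. The labels do not give which muscle was taken, the sex or age of the mice, what the 2 and 16 weeks are counted from, or if libraries are from separate animals, so the p-values given for DUX4 effects measure only the spread between libraries.

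Hox genes lie in clusters, and their place in a cluster follows where along the body and limb they act, with higher paralogue numbers acting further back and, in the limb, further out. Adult muscle fibres, satellite cells and connective tissue cells keep part of this code, together with genes of the Irx, Tbx, Pitx and Meis families, so that muscles of different regions carry different combinations. Fibres also differ by the myosin they use: slow fibres use Myh7, fast ones Myh2, Myh1 or Myh4. Whole-muscle RNA adds to the fibres whatever fat, vessel, nerve, tendon and immune cells came with the piece.

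Because these values chose the sets, the differences between them are a description, without a test. Levels are counts scaled to the size of each library (CPM), and a log2 difference is set 1 minus set 2 with genotype as a covariate. Totals ran from 10.6 to 13.8 M counts in set 1 and from 12.7 to 17.8 M in set 2, so 3 counts, taken as the limit that a count of 0 allows in a library, stood for 0.179 to 0.325 CPM; this covers counting error only. No pair of libraries held identical values. Both sets carried the genes of skeletal muscle at high level, with Myh4 at 17200 to 53200 CPM in set 1 and 19000 to 39500 in set 2. Xist was at 160 to 205 and 142 to 203 CPM. The DUX4 transgene was not analysed here, but Wfdc3, which responds to DUX4 in mouse muscle cells, followed the genotype labels, at 17.8 to 114 CPM in the 5 IDUX libraries against 0 to 0.492 in the 5 WT libraries. Of 2 libraries that stood apart in set 2, IDUX.2Weeks replicate 4 was high in slow-fibre, connective tissue and some fat genes, and WT.2Weeks replicate 4 was high in part of the mitochondrial genes; values without them stand beside the differences that leaving them out moved most.

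A gene was counted as different when the sets differed at least 2-fold and none of the 6 libraries of set 1 overlapped the 4 of set 2. Of 15137 genes that passed the filter on low counts 552, or 3.65%, were so counted, 431 higher in set 1 (2.85%) and 121 lower (0.799%). By the same count over the same libraries, IDUX and WT libraries differed in 809 genes (5.34%), 698 higher in IDUX (4.61%) and 111 lower (0.733%). Scaled by library totals alone, the set counts were 559 higher and 89 lower, since the median log2 difference of all genes was then 0.24 and not 0.02. Just inside the threshold were Dagla (log2 1.0) and Pla2g15 (1.02), and just outside it Ccdc80 (0.99) and Nrbp2 (0.98). Without IDUX.2Weeks replicate 4 the lower count was 200, and without replicate 5 it was 236. In the fit of IDUX libraries alone 1237 genes were past it, and in that of WT libraries alone 1368.

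The Hox genes differed in 3 of the 4 clusters, in both directions. Hoxc9, Hoxc10 and Hoxc11 were near or at 0 in set 1 and well expressed in set 2, while Hoxd8 and Hoxd9 were higher in set 1, by log2 3.57 each. In the Hox A cluster the middle gene Hoxa5 was higher in set 1, and Hoxa11 and Hoxa13 were lower. Of 10 Hox A genes that passed the filter 1 was counted as higher and 2 as lower, of 7 Hox C genes 1 as higher and 3 as lower, of 3 Hox D genes 2 as higher, and of 6 Hox B genes 0.

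Hoxd8 (ENSMUSG00000027102) had 60.7, 52.2 and 52.4 CPM in IDUX libraries of set 1 and 73.8, 52.3 and 51.3 in WT libraries of set 1, against 4.58 and 4.50 CPM in IDUX libraries of set 2 and 4.60 and 5.56 in WT libraries of set 2 (log2 3.57). The means were 57.1 ± 8.88 CPM in set 1 (SD, n = 6) and 4.81 ± 0.502 in set 2 (SD, n = 4). The sets lay far apart, and within a set IDUX and WT libraries lay together. Its neighbour Hoxd9 (ENSMUSG00000043342) had 10.8, 9.47 and 11.5 CPM in IDUX and 13.6, 11.3 and 11.8 in WT libraries of set 1, against 0.699 and 0.761 CPM in IDUX and 1.42 and 0.942 in WT libraries of set 2 (log2 3.57; 3.79 without WT.2Weeks replicate 4). The antisense transcript Hoxd3os1, which overlaps Hoxd8, ran from 3.68 to 6.34 CPM in set 1 and from 0.270 to 0.942 in set 2 (log2 3.05); whether the authors' quantification used strand is not given, so reads of the pair cannot be told apart. Hoxd4, on the 3' side, overlapped, at 1.63 to 2.92 CPM in set 1 and 1.66 to 2.57 in set 2 (log2 0.23). On the 5' side Hoxd10, Hoxd11, Hoxd12 and Hoxd13 reached at most 0.155 CPM in any of the 10 libraries.

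Start regions are shown for 4 of the Hox genes that moved in opposite directions, each with an entry among RefSeq promoters of GRCm38.p6. Each region runs from 250 bases before to 50 bases after the gene's start. Capitals mark matches to TAAT, the core that many homeodomain proteins bind, or to CCAAT, the box bound by NF-Y, on either strand (ATTA is TAAT on the other strand). Hoxd9 is at chr2:74697513-74697812 (+), Hoxd8 at chr2:74704365-74704664 (+), Hoxa11 at chr6:52245761-52246060 (-) and Hoxa13 at chr6:52260831-52261130 (-).
Hoxd9: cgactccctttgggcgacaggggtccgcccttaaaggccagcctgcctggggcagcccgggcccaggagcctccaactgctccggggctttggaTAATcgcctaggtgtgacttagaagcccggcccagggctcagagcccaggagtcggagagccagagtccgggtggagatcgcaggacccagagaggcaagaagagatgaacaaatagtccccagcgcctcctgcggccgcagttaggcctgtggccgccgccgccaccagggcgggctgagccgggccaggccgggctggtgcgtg
Hoxd8: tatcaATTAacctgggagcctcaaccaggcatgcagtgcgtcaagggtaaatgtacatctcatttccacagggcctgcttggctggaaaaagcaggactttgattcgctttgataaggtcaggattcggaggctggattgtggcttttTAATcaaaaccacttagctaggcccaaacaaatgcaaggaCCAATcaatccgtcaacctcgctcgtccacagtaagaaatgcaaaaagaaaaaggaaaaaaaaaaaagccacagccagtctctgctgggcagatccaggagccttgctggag
Hoxa11: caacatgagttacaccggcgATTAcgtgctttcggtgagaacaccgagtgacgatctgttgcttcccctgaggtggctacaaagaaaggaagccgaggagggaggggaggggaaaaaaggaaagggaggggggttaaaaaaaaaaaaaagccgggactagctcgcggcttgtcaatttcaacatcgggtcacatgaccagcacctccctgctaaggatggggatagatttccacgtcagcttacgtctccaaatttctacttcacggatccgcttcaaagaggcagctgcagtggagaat
Hoxa13: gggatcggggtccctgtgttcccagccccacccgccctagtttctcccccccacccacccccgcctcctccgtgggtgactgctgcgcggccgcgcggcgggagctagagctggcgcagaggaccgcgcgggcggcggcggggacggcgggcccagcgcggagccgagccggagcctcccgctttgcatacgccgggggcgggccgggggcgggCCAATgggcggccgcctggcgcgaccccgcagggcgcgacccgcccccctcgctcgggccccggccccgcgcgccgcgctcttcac

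The window of Hoxd8 held 2 TAAT matches and 1 CCAAT match, those of Hoxd9 and Hoxa11 held 1 TAAT each, and that of Hoxa13 held 1 CCAAT. Of 32851 promoters of this length 58% held TAAT and 37.4% CCAAT. Neither TTTATNG, a form of the site of posterior Hox proteins (10.9% of promoters), nor TATAAA (13.6%) was found on either strand of the 4 windows. No searched motif overlapped another. These matches describe the letters of the windows only.

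In the Hox C cluster on chromosome 15, Hoxc10 (102966796 to 102971893, GRCm38) had 0, 0 and 0.0635 CPM in IDUX and 0, 0 and 0.0920 in WT libraries of set 1, against 59.4 and 58.5 CPM in IDUX and 78.0 and 74.6 in WT libraries of set 2. The 6 libraries of set 1 held 2 counts in all and the 4 of set 2 held 3557. That is a ratio of 2700 in favour of set 2 (exact 95% counting interval 748 to 22300). The interval pools the libraries of a set and covers counting error only. Hoxc11 was at 0 in every library of set 1, against 7.61 and 9.41 CPM in IDUX and 8.72 and 8.57 in WT libraries of set 2, so it was at least 36.5-fold lower in set 1, taking 3 counts per library as the limit. Hoxc9 ranged from 0.0920 to 0.476 CPM in set 1 and from 7.53 to 9.04 in set 2 (log2 -5.36; -5.95 without IDUX.2Weeks replicate 2). The long noncoding RNA Hotair, transcribed from between Hoxc12 and Hoxc11, was at 0 in every library of set 1 and at 0.676 to 1.60 CPM in set 2. Towards the front of the cluster the sets overlapped. Hoxc8 had 0.571 to 1.85 CPM in set 1 and 1.52 to 1.89 in set 2 (log2 -0.39), and Hoxc6 had 2.6 to 5.33 and 3.88 to 6.83 (log2 -0.43). Hoxc5 was higher in set 1, at 2.74 to 6.48 against 1.71 to 2.26 CPM (log2 1.18), but its annotated span reaches over Hoxc9, Hoxc8 and Hoxc6 and most of Hoxc10, so its reads are uncertain.

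In the Hox A cluster on chromosome 6, Hoxa5 had 15.5, 11.3 and 14.2 CPM in IDUX and 13.9, 11.3 and 13.6 in WT libraries of set 1, against 3.34 and 2.28 CPM in IDUX and 3.92 and 3.96 in WT libraries of set 2 (log2 1.99). Hoxa9 overlapped, at 11.8 to 16.8 CPM in set 1 and 11.9 to 13.7 in set 2 (log2 0.16). Hoxa10 was lower in set 1, short of 2-fold, at 10.5 to 15.5 against 16.1 to 27.2 CPM (log2 -0.61). At the back end of the cluster the gap was wider. Hoxa11 had 0.444 to 0.980 CPM in set 1 against 3.11 to 6.62 in set 2 (log2 -2.48), and Hoxa13 had 0.357 to 1.41 against 2.01 to 7.17 (log2 -2.37). The antisense transcript Hoxa11os moved with Hoxa11 (log2 -2.02), and Hotairm1, at the front of the cluster, was higher in set 1 (log2 1.48). Hoxa3 spans several neighbours and is uncertain. The 6 Hox B genes tested lay between log2 -0.38 and 0.94, each at 4.29 CPM or less.

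**Figure D1:**
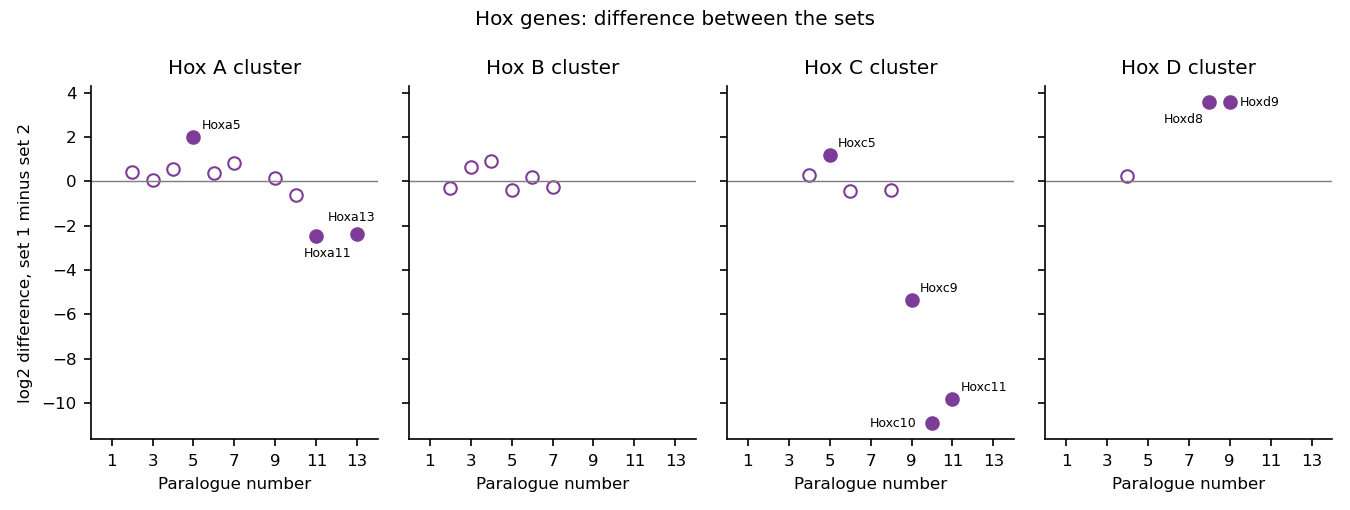
Log2 difference, set 1 minus set 2, of every tested Hox gene against its paralogue number, 1 panel per cluster. Filled points are past 2-fold without overlap of the 10 libraries; Hoxc9 to Hoxc11 lie at log2 -5.36 or below and Hoxd8 and Hoxd9 at 3.57, while the Hox B genes lie within 1 of 0. The values of Hoxc10 and Hoxc11 rest on 2 and 0 counts in set 1 and depend on the fit's prior count.

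Of the other position genes, Irx5 and Tbx1 separated the sets most, in opposite directions. Irx5, a homeobox factor of limb and heart patterning, had 19.8, 16.6 and 19.6 CPM in IDUX and 22.0, 16.1 and 19.4 in WT libraries of set 1, against 0.621 and 0.207 CPM in IDUX and 0 and 0.188 in WT libraries of set 2 (log2 6.21; 7.13 without IDUX.2Weeks replicate 4 and 5.76 without WT.2Weeks replicate 4). The means were 18.9 ± 2.20 CPM in set 1 (SD, n = 6) and 0.254 ± 0.262 in set 2 (SD, n = 4). Irx3, its neighbour in the same Irx cluster on chromosome 8, had 5.72 to 10.5 CPM in set 1 and 1.66 to 2.17 in set 2 (log2 2.10), and the noncoding RNA Crnde, which starts beside Irx5, had 1.62 to 6.64 and 0.338 to 1.13 (log2 2.66). Irx2 lies in the other Irx cluster; it had 0.164 to 0.980 CPM in set 1 and was at 0 in all 4 libraries of set 2. Irx4 and Irx6 were at 0 in all 10 libraries. Tbx1, a T-box factor of the pharyngeal region and of head muscle, had 0.457, 0.953 and 1.40 CPM in IDUX and 2.21, 2.16 and 1.66 in WT libraries of set 1, against 41.2 and 45.1 CPM in IDUX and 53.2 and 60.6 in WT libraries of set 2 (log2 -5.15), with means of 1.47 ± 0.688 CPM in set 1 (SD, n = 6) and 50.0 ± 8.65 in set 2 (SD, n = 4). The other T-box gene counted, Tbx5, of the forelimb, was higher in set 1 at a low level, 0.457 to 1.89 against 0 to 0.338 CPM (log2 2.42; 2.12 without IDUX.2Weeks replicate 4).

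Meis2, a homeodomain partner of Hox proteins, had 2.48 to 3.63 CPM in set 1 and 0.155 to 0.946 in set 2 (log2 2.82; 2.50 without IDUX.2Weeks replicate 4 and 3.53 without WT.2Weeks replicate 4). Emx2, a homeobox factor of the shoulder girdle and urogenital tract, had 2.48 to 4.67 and 0.270 to 0.621 (log2 3.21; 3.66 without IDUX.2Weeks replicate 4). Pax3, which marks the muscle precursors that migrate into limb and trunk and persists in satellite cells of some muscles, had 3.72, 2.20 and 3.24 CPM in IDUX and 4.67, 2.38 and 5.24 in WT libraries of set 1, against 0.466 and 0.138 CPM in IDUX and 0.676 and 0.848 in WT libraries of set 2 (log2 2.81). The general satellite cell factor Pax7 overlapped, at 4.95 to 7.51 against 4.27 to 8.02 CPM (log2 0.02). Higher in set 2 were Six2, a homeobox factor (0.719 to 1.10 against 2.70 to 5.81 CPM, log2 -2.09), and Zic1, a zinc finger factor of the dorsal body (0.127 to 0.784 against 0.942 to 2.72 CPM, log2 -2.02). Pitx1, the hind-limb homeobox factor, had a log2 difference of 2.51 but overlapped, with 0.457 to 3.57 CPM in set 1 and 0.0692 to 0.544 in set 2. Tbx15, a T-box factor of fast muscle, was at 94.2 to 303 CPM in set 1 and 131 to 253 in set 2 and did not separate them. Lbx1, of migrating limb muscle precursors, was a little lower in set 1, at 48.5 to 62.7 against 70.5 to 82.6 CPM (log2 -0.37), without overlap but short of 2-fold.

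The 16-week whole-muscle libraries, which took no part in the choice of the sets, matched neither. On the log2 scale with a pseudocount of 0.5 CPM, Hoxd8 and Hoxd9 lay nearer the mean of set 1 in 8 of 8 libraries. Hoxc9, Hoxc10, Hoxc11, Hoxa5, Hoxc5, Irx3, Irx5 and Six2 lay nearer set 1 in 0 of 8, that is, nearer set 2 in each. Tbx1 lay nearer set 1 in 6 of 8 and Emx2 in 5 of 8. The other position genes counted leaned to set 2: Hoxa13 and Zic1 lay nearer set 1 in 1 of 8, Tbx5 in 2, and Hoxa11 and Meis2 in 3. Hoxd8 reached 22.7 to 44.4 CPM in IDUX.16Weeks, against 43.3 to 51.4 in WT.16Weeks, and Hoxc10 reached 39.6 to 52.6 against 63.2 to 82.2, so at 16 weeks the 2 genes were high in the same libraries. Tbx1 stood at 3.03 to 7.30 CPM in IDUX.16Weeks libraries, against 3.19 to 6.19 in WT.16Weeks ones, between the levels of the sets. Sim1, a transcription factor of limb muscle precursors, was at 5.29 to 8.83 CPM in set 1 and 11 to 13.2 in set 2 (log2 -0.91). At 16 weeks Sim1 was at 0.913 to 2.53 CPM in IDUX libraries and 0.671 to 2.88 in WT libraries, so both sets lay above every 16-week library. WT.16Weeks replicate 1 stood apart from its group in macrophage genes, with 117 CPM of Lyz2 against 10.7 to 12.7 in the other 3.

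The sorted hind-limb cells, made with another kit and scaled apart, give these genes in single cell types, on levels that are not matched to whole muscle. Hoxd8 ran from 15.1 to 30.4 CPM (median 19.8) in 7 endothelial libraries and from 5.63 to 14.7 (median 10.8) in 7 of fibro-adipogenic progenitors (FAPs), the PDGFRa+ connective tissue cells of muscle. Hoxc10 ran from 1.23 to 6.10 CPM (median 2.74) and from 7.31 to 13.4 (median 8.48). Irx5 reached at most 3.06 CPM in endothelial cells and 1.86 in FAPs. Meis2 and Emx2 had medians of 16.6 and 8.26 CPM in FAPs, and of 7.37 and 0.914 in endothelial cells.

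**Figure D2:**
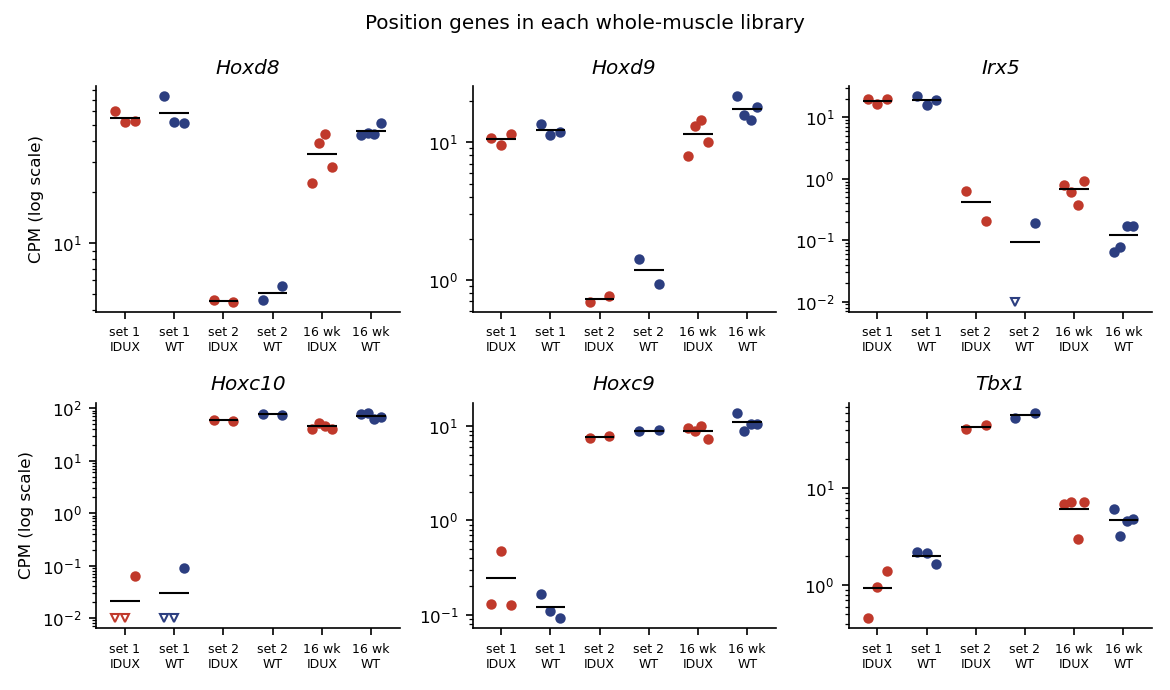
Scaled level in CPM (log axis) of 6 position genes in each 2-week library, by set and genotype, and in each 16-week library; points are libraries, bars are group means, and open triangles mark libraries at 0, drawn at the foot of the axis. Hoxd8 and Hoxd9 at 16 weeks lie with set 1, Hoxc9, Hoxc10 and Irx5 with set 2, and Tbx1 between the sets.

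Some slow-fibre genes were higher in set 1, among them the slow myosin and 2 slow troponins, at levels far below those of the fast myosins. Myh7, the slow myosin heavy chain, had 434, 292 and 204 CPM in IDUX and 144, 303 and 487 in WT libraries of set 1, against 114 and 9.34 CPM in IDUX and 9.33 and 9.98 in WT libraries of set 2 (log2 3.49). The library at 114 was IDUX.2Weeks replicate 4, and the log2 difference without it was 5.03. The slow troponins moved the same way. Tnnt1 had 74.4 to 224 CPM in set 1 against 9.26 to 33.9 in set 2 (log2 3.17), and Tnnc1 had 26.6 to 119 against 3.30 to 17.9 (log2 3.25; 3.86 without IDUX.2Weeks replicate 4). Of 18 slow-fibre genes 5 were counted as higher in set 1, these together with Myl2 (slow regulatory light chain, log2 2.36) and Tpm3 (slow tropomyosin, log2 1.62), 0 as lower, 14 lay above 0, and the median was 0.88, against 0.02 over all genes. Summed, the list had 3870 to 4920 CPM in IDUX and 3670 to 4890 in WT libraries of set 1, against 3440 to 3620 CPM in IDUX and 3870 to 4420 in WT libraries of set 2, so the sums of the sets overlapped. Tnni1 (log2 2.01) and Atp2a2, the slow calcium pump (log2 1.67), overlapped, since IDUX.2Weeks replicate 5 was at 116 and 168 CPM. Both sets were well below the 16-week libraries, where Myh7 was at 1396 to 2773 CPM in the IDUX group and 1805 to 3337 in the WT group.

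Fast-fibre genes differed little. Of 16 tested 0 were counted and 1 lay above 0. The median log2 difference was -0.25 (-0.02 by library totals alone), and it was -0.60 among IDUX libraries and -0.01 among WT libraries. Myh4, the fastest myosin, overlapped (log2 -0.17). Myh1, the 2X myosin, did not: it had 6080, 6710 and 7460 CPM in IDUX and 9550, 11200 and 11500 in WT libraries of set 1, against 15000 and 18100 CPM in IDUX and 16800 and 16100 in WT libraries of set 2 (log2 -0.96, short of 2-fold). Mb, the oxygen store myoglobin, had 1180, 1000 and 1210 CPM in IDUX and 1840, 1500 and 1750 in WT libraries of set 1, against 2210 and 3800 CPM in IDUX and 3440 and 3840 in WT libraries of set 2 (log2 -1.26). No library of set 1 reached the lowest of set 2 for Mb. Myh2, the 2A myosin, overlapped widely, at 1120 to 3330 against 1430 to 5240 CPM.

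All 13 mitochondrially encoded genes lay below 0, between log2 -1.48 and -0.51 with a median of -0.89 (-0.67 by library totals alone). Of these, mt-Atp6, a subunit of ATP synthase, was counted, with 3360 to 5910 CPM in set 1 against 7340 and 6390 CPM in IDUX and 35900 and 8550 in WT libraries of set 2. The library at 35900 is WT.2Weeks replicate 4; without it the log2 difference was -0.80, against -1.48 with it, and 0 of the 13 were counted. The nuclear-encoded respiratory chain differed less: 0 of 24 genes were counted, 1 lay above 0, and their median was -0.16 (0.06 by library totals alone). Of 28 regulators of fibre type 1 was counted, near the share of 3.65% over all genes. It was Nfatc2, a calcineurin-dependent factor, at 23.5 to 46.4 against 10.4 to 22.6 CPM (log2 1.20). Of that list 6 genes lay above 0, and the median was -0.15 (0.07 by library totals alone).

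The 12 largest differences below 0 were also looked up among genes past 2-fold without overlap that had an established symbol and a mean of at least 5 CPM in set 2. One of them was Nos1, the neuronal nitric oxide synthase anchored at the fibre membrane, which had 9.80, 6.37 and 15.7 CPM in IDUX and 36.9, 55.2 and 33.8 in WT libraries of set 1, against 112 and 71.0 CPM in IDUX and 193 and 192 in WT libraries of set 2 (log2 -2.65). Tbc1d1, a regulator of glucose transporter traffic, had 17.1 to 40.1 CPM in set 1 and 62.5 to 193 in set 2 (log2 -2.70). Col22a1, a collagen of the junction between muscle and tendon, had 1.5 to 5.66 and 23.0 to 35.2 (log2 -3.05). Cacna2d4, a calcium channel subunit, had 0.190 to 2.95 and 3.53 to 12.4 (log2 -3.15; -3.79 without WT.2Weeks replicate 1). Within those limits, and beside the Hox and Tbx genes, the largest differences below 0 were those of Cyp4f39, a cytochrome P450 of fatty acid metabolism (0 to 0.820 against 3.53 to 31.8 CPM, log2 -6.10), and Adamts8, a secreted metalloprotease (0.476 to 1.62 against 7.47 to 45.2 CPM, log2 -4.73). In both, IDUX.2Weeks replicate 5 was the lowest of set 2 and the WT libraries the highest. Cyfip2, a regulator of actin assembly, was at 1.79 to 3.04 CPM in set 1 and at 48.5, 9.20, 10.1 and 4.71 in set 2; without the 48.5 of IDUX.2Weeks replicate 4 its log2 difference was -1.81, against -2.77 with it.

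Many fat cell genes were higher in set 1. Ucp1, the uncoupling protein of brown and beige fat, had 24.4, 95.6 and 281 CPM in IDUX and 50.7, 421 and 311 in WT libraries of set 1, against 0.388 and 0.0692 CPM in IDUX and 0 and 0.0942 in WT libraries of set 2 (log2 10.38; 11.80 without IDUX.2Weeks replicate 4 and 9.76 without WT.2Weeks replicate 4). Adipoq, the fat cell hormone adiponectin, had 40.9, 37.0 and 49.0 CPM in IDUX and 12.9, 72.1 and 59.4 in WT libraries of set 1, against 2.72 and 0.207 CPM in IDUX and 0.541 and 0.377 in WT libraries of set 2 (log2 5.57). In whole tissue, fewer cells of a type and less RNA per cell cannot be told apart. Of 12 white fat genes 9 were counted as higher in set 1 and 0 as lower, with a median of 5.05, among them Scd1 (305 to 3890 against 7.54 to 18.9 CPM, log2 7.14, or 6.48 without WT.2Weeks replicate 2) and Fasn (61.2 to 472 against 2.10 to 4.73 CPM, log2 6.59), enzymes of fatty acid synthesis, and the lipid droplet protein Cidec (9.84 to 77.2 against 0.188 to 1.71 CPM, log2 5.98, or 7.12 without IDUX.2Weeks replicate 4). The others were Plin4 (log2 -0.18) and Pnpla2 (0.60), which fibres also use for lipid droplets, and Plin1, listed at 0 in every library of set 2 and in 3 of 6 of set 1. Summed over the list, set 1 had 1430 to 3570 CPM in IDUX and 893 to 5730 in WT libraries, against 330 to 567 CPM in IDUX and 485 to 641 in WT libraries of set 2.

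Of 8 brown fat genes tested 3 were counted as higher, Ucp1 with Elovl3 (a fatty acid elongase, 0.457 to 8.76 against 0 to 0.0776 CPM) and Cidea (a lipid droplet protein, 12.9 to 92.3 against 0.471 to 5.26 CPM, log2 4.90, or 5.73 without IDUX.2Weeks replicate 5), and Zic1 was counted as lower. Prdm16, a determinant of brown fat, and Cox8b, a respiratory chain subunit, were not counted (log2 -0.03 and -0.14). Other genes far above 0 were the fatty acid transporter Slc27a2 (0.902 to 24.6 against 0 to 0.0692 CPM), the asparaginase Aspg (2.61 to 19 against 0 to 0.138), Pck1, the enzyme of glycerol synthesis in fat (24.6 to 365 against 0 to 2.87 CPM, log2 7.47, or 9.35 without IDUX.2Weeks replicate 4), and the fat cell galectin Lgals12 (1.39 to 10.2 against 0 to 0.135, log2 6.19). Slc27a2, Aspg and Elovl3 held 1, 2 and 2 counts in the 4 libraries of set 2. Their ratios in favour of set 1 were 492, 275 and 75.0, with exact 95% counting intervals of 88.1 to 19500, 75.8 to 2270 and 20.5 to 623. Those intervals pool the libraries of a set. They cover counting error only, not the spread between libraries or the choice of these genes. Tmem45b (log2 6.93, or 7.59 without IDUX.2Weeks replicate 5), Apoc1 (6.48) and Arxes2 (6.05, uncertain beside its near-identical copy Arxes1) completed the 12 largest differences above 0 among genes past 2-fold without overlap that had an established symbol and a mean of at least 5 CPM in set 1; Irx5 is among these 12 and Elovl3, lower in level, is not.

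Within set 1 the fat genes varied widely, Adipoq between 12.9 and 72.1 CPM. IDUX.2Weeks replicate 1 was the lowest of the 6 for Ucp1 (24.4 CPM), and WT.2Weeks replicate 1 was the lowest for Adipoq (12.9), Scd1 (305), Fasn (61.2) and Pck1 (24.6). IDUX.2Weeks replicate 1 was not the lowest for the fat gene Cidec, at 32.6 CPM against 20.3 in IDUX.2Weeks replicate 2. Over the 6 libraries Irx5 ran from 16.1 to 22.0 CPM and Hoxd8 from 51.3 to 73.8. Whether these 2 genes vary with the fat genes was not tested. In the 16-week libraries Adipoq was at 16.6 to 49.5 CPM in IDUX and 1.85 to 9.32 in WT libraries, whereas Ucp1 reached 2.33 CPM in IDUX.16Weeks and 0.284 in WT.16Weeks, below every library of set 1. What part the fat in a piece of muscle has in other genes of the list was not tested.

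Macrophage genes were also higher in set 1. Lyz2, lysozyme, had 79.8, 68.8 and 82.6 CPM in IDUX and 70.0, 45.3 and 53.1 in WT libraries of set 1, against 20.8 and 12.2 CPM in IDUX and 11 and 8.76 in WT libraries of set 2 (log2 2.36). All 12 genes of the list lay above 0, with a median of 1.95, and 6 were counted: Lyz2, the F4/80 antigen gene Adgre1 (2.85 to 7.06 against 0.754 to 1.24 CPM, log2 2.31), the complement genes C1qa, C1qb and C1qc (log2 2.19 to 2.39), and Lyve1 (log2 2.16), which lymphatic endothelium also expresses. The summed list was at 229 to 247 CPM in IDUX and 132 to 194 in WT libraries of set 1, against 93.4 to 105 CPM in IDUX and 43.4 to 48.3 in WT libraries of set 2. Cd68 overlapped (log2 0.80), following the genotype: it was at 15.9 to 44.3 CPM in the IDUX libraries of both sets and at 0.659 to 3.89 in the WT libraries. Mast cell genes were low but apart, with 4 of the 6 genes tested in the neutrophil and mast cell list counted as higher. Cpa3, mast cell carboxypeptidase, had 0.653 to 3.69 CPM in set 1 against 0 to 0.473 in set 2 (log2 3.31; 3.95 without WT.2Weeks replicate 4), and the proteases Cma1 (log2 2.61), Mcpt4 (2.35) and Tpsb2 (2.01) did likewise. S100a8 and S100a9, the defining neutrophil genes, were too low to be tested.

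Connective tissue genes split by kind. Of 12 FAP genes 3 were counted as higher in set 1, with a median of 0.59. The median of these 12 was 0.29 among IDUX libraries and 0.90 among WT libraries. Pi16 and Dpp4 mark a subset of fibroblasts found around vessels and fascia, and Gsn encodes the actin-severing protein gelsolin. Pi16 had 16.7, 26.2 and 37.1 CPM in IDUX and 54.6, 52.9 and 42.2 in WT libraries of set 1, against 10.2 and 4.43 CPM in IDUX and 4.26 and 4.14 in WT libraries of set 2 (log2 2.65; 3.18 without the 10.2 of IDUX.2Weeks replicate 4). Dpp4 had 5.49 to 13.1 CPM in set 1 against 0.848 to 2.28 in set 2 (log2 2.45), and Gsn 268 to 664 against 75.7 to 266 (log2 1.68; 2.38 without IDUX.2Weeks replicate 4). The sort marker of FAPs, Pdgfra, overlapped, at 11.8 to 25.0 against 6.85 to 17.7 CPM (log2 0.80), as did Dcn, which encodes decorin (log2 0.58). Of 22 fibrillar matrix genes 3 were counted as higher, Col14a1 (17.2 to 48.0 against 3.24 to 6.91 CPM, log2 2.63), Postn (log2 1.32) and Thbs2 (log2 1.27), and the median was 0.51. That median was 0.12 among IDUX libraries and 0.93 among WT libraries.

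Tendon genes ran the other way, with all 10 below 0, a median of -1.54 and 5 counted as lower in set 1. Tnmd, tenomodulin, had 0.327, 0.476 and 1.59 CPM in IDUX and 1.23, 0.866 and 1.10 in WT libraries of set 1, against 6.83 and 6.78 CPM in IDUX and 5.54 and 4.99 in WT libraries of set 2 (log2 -2.70). The matrix proteoglycan Kera (log2 -2.63), Cilp2 (-2.52, or -2.12 without IDUX.2Weeks replicate 4), Chad (-2.51) and Fmod (-1.82) were the other members counted. Scx, the tendon transcription factor, overlapped, at 1.93 to 3.85 against 2.95 to 6.97 CPM. The summed list was at 90.7 to 109 CPM in IDUX and 39.7 to 58.0 in WT libraries of set 1, against 157 to 184 CPM in IDUX and 84.3 to 111 in WT libraries of set 2, so each genotype was lower in set 1 while the 2 sets as wholes overlapped.

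Endothelial genes were a little lower in set 1. All 16 lay below 0, with a median of -0.69 (-0.47 by library totals alone), but 1 was counted, the vascular guidance receptor Robo4 (6.43 to 16.2 against 16.5 to 30.0 CPM, log2 -1.25). Cdh5, the cadherin of endothelial junctions, had 47.3, 46.9 and 53 CPM in IDUX and 115, 94.2 and 97.4 in WT libraries of set 1, against 162 and 107 CPM in IDUX and 149 and 152 in WT libraries of set 2 (log2 -1.02), so 1 WT library of set 1 reached above the lowest of set 2. Of 10 mural genes 0 were counted (median -0.58). Among 12 genes of Schwann cells and nerve, S100b was counted as higher (1.72 to 7.57 against 0.553 to 1.71 CPM, log2 1.89) and Prph, a neurofilament gene, as lower (log2 -1.99), and both stayed low. Neither the 6 DUX4-responsive genes nor the lists of circadian clock, immediate early, heat shock and cell cycle genes had a member counted. Each set holds both genotypes, so a gene that DUX4 moves widely tends to overlap between the sets and is then not counted. For such genes the count of 0 does not show that the sets were alike. Median log2 differences of heat shock genes were 0.56 among IDUX libraries and 0.01 among WT libraries.

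**Figure D3:**
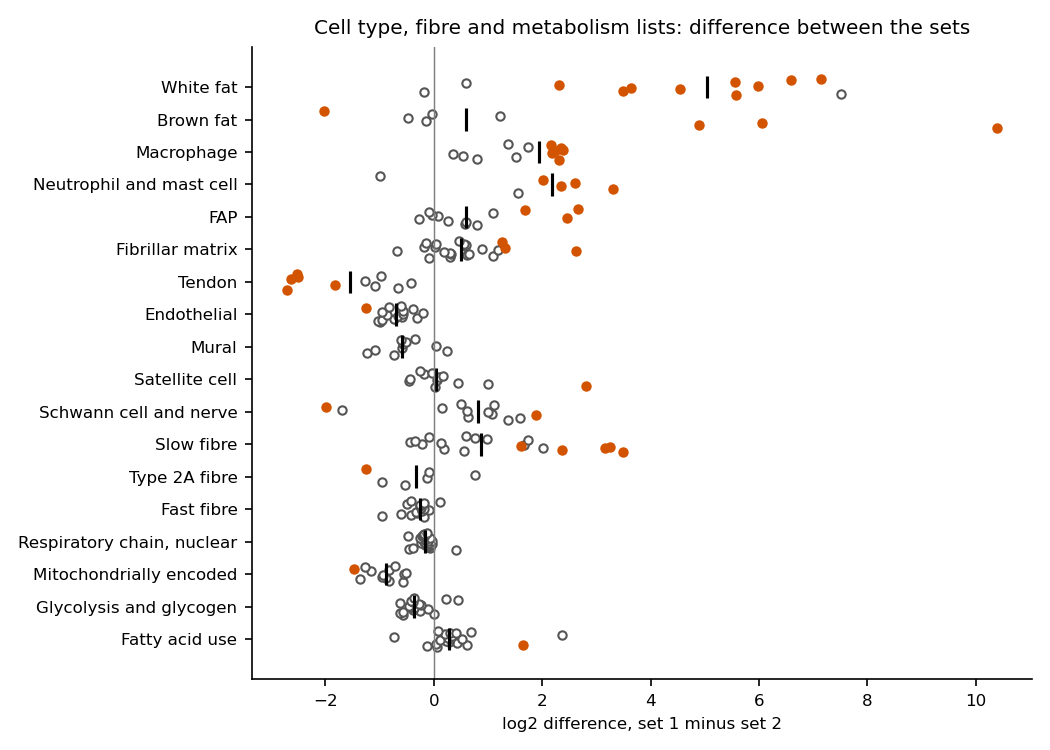
Log2 difference, set 1 minus set 2, of each tested gene in 18 lists of cell types, fibre types and metabolism. Filled points are past 2-fold without overlap of the 10 libraries and bars are list medians, which lie at 5.05 for white fat, 1.95 for macrophages and -1.54 for tendon, against 0.02 over all genes.

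**Figure D4:**
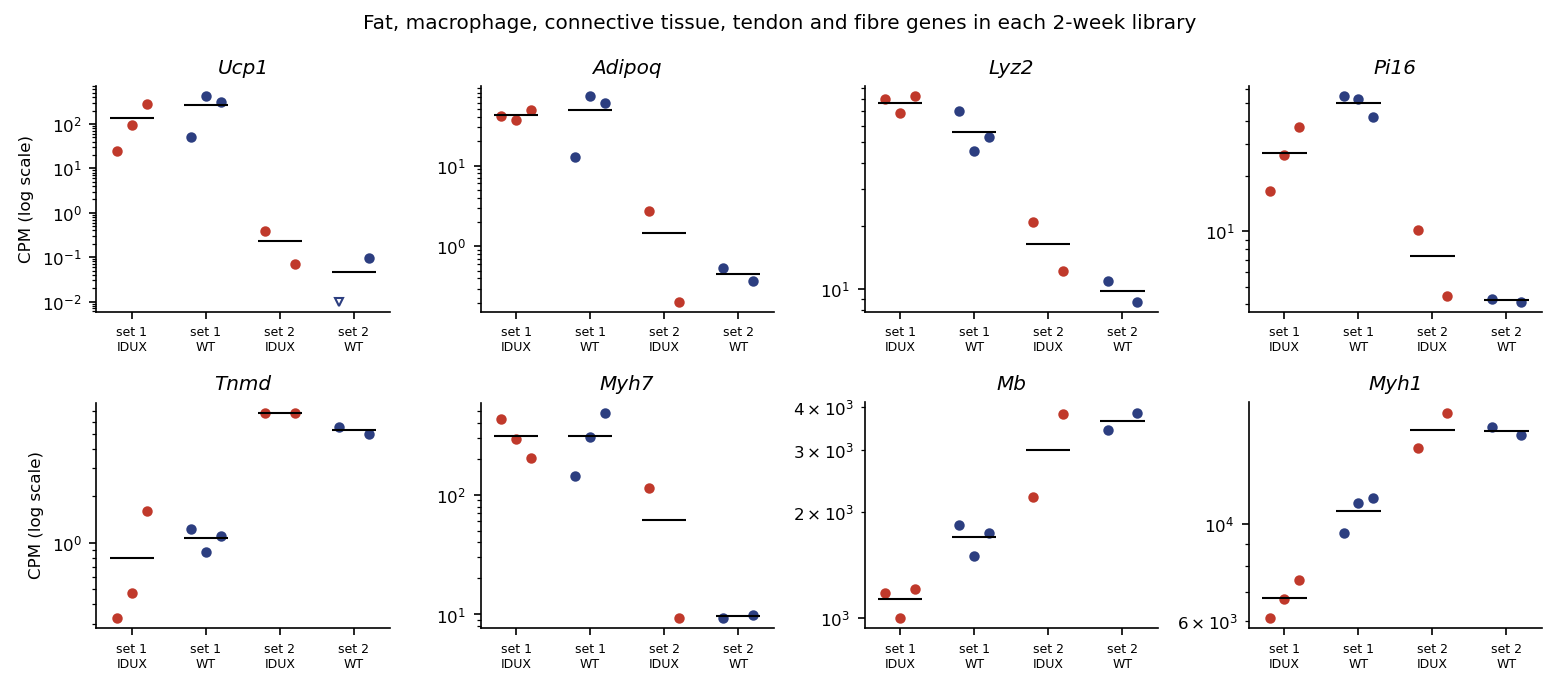
Scaled level in CPM (log axis) of genes of fat (Ucp1, Adipoq), macrophages (Lyz2), connective tissue (Pi16), tendon (Tnmd) and fibres (Myh7, Mb, Myh1) in each 2-week library by set and genotype; points are libraries, bars are group means, and the open triangle marks a library at 0. Set 1 is above set 2 for the first 4 genes and Myh7, where IDUX.2Weeks replicate 4 is the high point of set 2 at 114 CPM, and below it for Tnmd, Mb and Myh1.

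Over the genes that differed, the 16-week libraries divided by genotype. Of the 431 genes higher in set 1, between 55.0% and 70.1% lay nearer set 1 in the 4 IDUX.16Weeks libraries, against 22.7% to 32.3% in the 4 WT.16Weeks libraries. Of the 121 genes lower in set 1 the shares nearer set 1 were 39.7% to 43.8% in IDUX and 51.2% to 67.8% in WT libraries of that age. Genotype and these levels move together at 16 weeks; whether a difference of muscle adds to that was not tested.

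The sets also allow the DUX4 effect, IDUX minus WT, to be compared within each, a contrast that their choice did not use, in 1 fit over the 18 whole-muscle libraries. In set 1 edgeR's quasi-likelihood test with Benjamini-Hochberg adjustment called 2004 of 16333 genes (12.3%), 1258 higher (7.7%) and 746 lower (4.57%) in IDUX. In set 2, with 2 libraries a side, it called 572 (3.5%), 494 higher (3.02%) and 78 lower (0.478%). The 455 genes called in both, 22.7% of the calls of set 1 and 79.5% of those of set 2, had the same direction in each. The median SE of a log2 effect was 0.29 in set 1 and 0.36 in set 2. Without WT.2Weeks replicate 4 the calls in set 2 came to 116, and without IDUX.2Weeks replicate 5 to 130; the calls in set 1 came to 1241 without IDUX.2Weeks replicate 1, to 928 without replicate 2, to 1166 without WT.2Weeks replicate 2 and to 1238 without replicate 3.

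Genes that respond to DUX4 rose in both sets. Sord, sorbitol dehydrogenase, had 406, 571 and 421 CPM in IDUX libraries of set 1 against 90.1, 61.7 and 60.0 in WT libraries of set 1, and 354 and 637 CPM in IDUX libraries of set 2 against 67.5 and 67.5 in WT libraries of set 2. Its log2 effect was 2.72 ± 0.23 (SE) in set 1 and 2.88 ± 0.28 in set 2 (edgeR adjusted p = 8.22e-06 and 0.000149). Wfdc3 rose by log2 7.83 ± 0.82 in set 1 and 8.65 ± 1.05 in set 2 (edgeR adjusted p = 4.05e-05 and 0.000338), and Ilvbl, an acetolactate synthase-like enzyme, by 2.58 ± 0.21 and 2.32 ± 0.25 (edgeR adjusted p = 8.04e-06 and 0.000168). Of the 6 genes of that list 5 were called higher in set 1 and 4 in set 2, and 0 for the difference between the sets (edgeR, smallest unadjusted p = 0.185, Serpinb6c). By limma voom the call in set 2 was lost for Wfdc3 (adjusted p = 0.146) and the calls in both sets for Serpinb6c (adjusted p = 0.085 in set 1 and 0.147 in set 2). The edgeR call of Serpinb6c in set 2 was also lost without IDUX.2Weeks replicate 5 (adjusted p = 0.0641) and without WT.2Weeks replicate 4 (adjusted p = 0.0947). Slc15a2, the fifth gene called in set 1, lost its edgeR call without any of 4 of the 6 libraries of set 1 (adjusted p = 0.0995 to 0.141).

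Most lists held more calls in set 1 than in set 2, and no list held a gene called for the difference. Set 1 had 3 libraries a side and set 2 had 2, so these counts do not compare the size of the effects. Of 16 fast-fibre genes 9 fell with DUX4 in set 1 and 1 in set 2, of 13 mitochondrially encoded genes 8 and 1, of 18 glycolysis and glycogen genes 7 and 0, and of 12 heat shock genes 8 and 2 rose. Median log2 effects were -1.07 in set 1 and -0.45 in set 2 for fast fibre, and 1.29 and 0.70 for heat shock. White fat genes had 0 calls in either set. Of the 552 genes past 2-fold between the sets 7 were called in set 1 and 6 in set 2 for the DUX4 effect. Over all genes the shares called were 12.3% and 3.5%. A gene that DUX4 moves widely tends to overlap between sets, so that rule left such genes out. The 2 counts therefore do not measure how the 552 genes respond. Nos1 was 1 of the 7, with a log2 effect of -1.98 ± 0.47 in set 1 (edgeR adjusted p = 0.0127) and -1.07 ± 0.54 in set 2 (edgeR adjusted p = 0.363).

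The DUX4 effect differed between the sets in 1 gene of 16333 (0.00612%) by edgeR's test of the difference, with 748 genes at an unadjusted p under 0.05. The count was 42 by DESeq2 and 73 by edgeR without WT.2Weeks replicate 5, and 0 without WT.2Weeks replicate 4. That gene was Zfp385a (ENSMUSG00000000552, chromosome 15, 103313895 to 103340093), a zinc finger protein that partners p53. It had 85.7, 113 and 77.4 CPM in IDUX libraries of set 1 against 101, 91.4 and 96.5 in WT libraries of set 1, and 49.6 and 77.7 CPM in IDUX libraries of set 2 against 9.73 and 8.01 in WT libraries of set 2. The 2 WT libraries of set 2 were low and the other 8 high. Its log2 effect was -0.07 ± 0.21 in set 1 (edgeR adjusted p = 0.883) and 2.84 ± 0.29 in set 2 (edgeR adjusted p = 0.000149), a difference of -2.91 ± 0.35 (edgeR adjusted p = 0.00739). Over the alternatives that keep every library the adjusted p of that difference lay between 1.68e-11 and 0.0296, and without WT.2Weeks replicate 4 it was 0.0885 by edgeR, which ends the call. At 16 weeks Zfp385a was at 38.4 to 48.9 CPM in IDUX and 9.71 to 18.1 in WT libraries, with the IDUX libraries the higher, as in set 2.

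Cilp, a matrix protein of cartilage and fibrotic tissue, came next by p without being called (difference of log2 -3.44 ± 0.53, edgeR adjusted p = 0.0802). It had 206, 262 and 268 CPM in IDUX libraries of set 1 against 152, 131 and 107 in WT libraries of set 1, and 185 and 267 CPM in IDUX libraries of set 2 against 10.6 and 11.4 in WT libraries of set 2. The IDUX libraries of the sets were alike and the WT libraries apart, as for Zfp385a, and the 16-week libraries were at 165 to 361 CPM in IDUX against 11.1 to 29.7 in WT mice. Duoxa1, a maturation factor of dual oxidases, was at 2.98 to 4.71 CPM in IDUX libraries of set 1 against 1.07 to 1.95 in WT libraries of set 1, and at 6.68 and 9.20 CPM in IDUX libraries of set 2 against 0 and 0 in WT libraries of set 2 (edgeR adjusted p of the difference = 0.106). The next 2 genes, Eif4ebp3 and Otog, ran the other way at low levels. Eif4ebp3, a translation repressor, was at 0.762 to 1.57 CPM in IDUX libraries of set 1 against 0 in each WT library of set 1, and at 1.09 and 1.11 CPM in IDUX libraries of set 2 against 1.96 and 0.942 in WT libraries of set 2 (edgeR adjusted p of the difference = 0.122). Otog, otogelin of the inner ear, was at 0.762 to 1.01 CPM in IDUX libraries of set 1 against 0 to 0.108 in WT libraries of set 1, and at 0.776 and 0.346 CPM in IDUX libraries of set 2 against 1.69 and 1.79 in WT libraries of set 2 (edgeR adjusted p of the difference = 0.122).

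**Figure D5:**
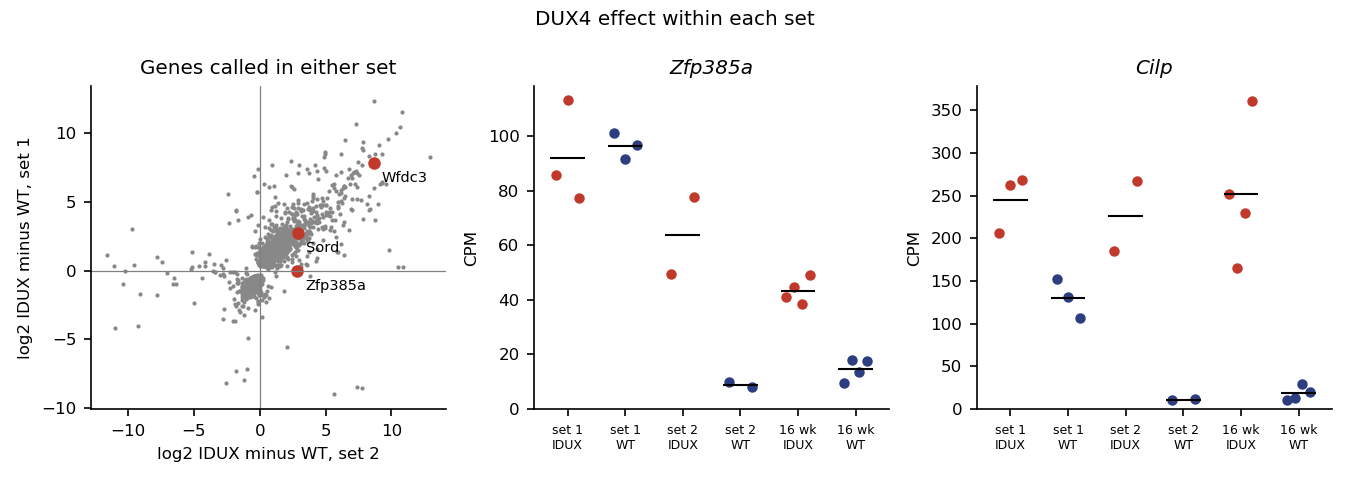
Left, log2 DUX4 effect (IDUX minus WT) in set 1 against that in set 2 for each gene called in either set, with Wfdc3, Sord and Zfp385a marked. Middle and right, CPM of Zfp385a and Cilp in each 2-week and 16-week library, with bars at group means; the WT libraries of set 1 lie at 91.4 to 101 CPM for Zfp385a and those of set 2 at 8.01 and 9.73.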

How the data were processed

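Per the submitters' processing notes the authors used CASAVA 1.8, Salmon 0.6.0 and the mm10 genome (GRCm38). The deposited tables, 1 for each library, hold expected counts by gene without scaling for depth; which annotation was used and how transcripts were summed is not given in the sources used here. Symbols and coordinates were taken from GENCODE vM21, and promoters from RefSeq. Each table held 43035 genes, 42459 of them with a symbol. The counts were rounded to whole numbers.

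The members of the sets, the 55 gene lists (673 genes) and the tests were chosen with earlier results of these data known. Replicate numbers follow accession order. Low counts were removed by filterByExpr (minimum of 10 counts), the 18 whole-muscle libraries were scaled together by trimmed mean of M-values factors, and the 14 sorted libraries apart. The set difference is a log2 coefficient from edgeR 4.0.16 (R 4.3.3) over the 10 libraries with genotype as covariate, given without a test. DUX4 effects came from 1 fit of the 18 libraries with 6 group means and edgeR's robust quasi-likelihood test, adjusted by the Benjamini-Hochberg method and called under 0.05; an SE is the log2 change divided by the square root of F. The procedure was tested on simulated data.

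Named genes were the 12 largest set differences each way with at least 5 CPM in the higher set and an established symbol (clone names, pseudogenes and mitochondrial tRNAs left out), up to 3 members of each list past 2-fold without overlap, all tested Hox genes, the markers Hoxd8, Tbx1 and Irx5, and up to 5 genes each way called for the difference in DUX4 effect. Other genes named, further list members, noncoding RNAs of the clusters and genes that missed a call, were chosen after their values were seen. Of 84 genes named by the rule 55 had a RefSeq promoter. Alternatives were DESeq2 1.42.0, limma voom (limma 3.58.1), other scalings and filters, and leaving out each library.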

Additional observations from a re-analysis of the deposited data

Results flagged for a closer look

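Within a set, 18 values in 17 named genes lay far from the other libraries of that set by Dixon's criterion. They came from 167 groups of 4 or 6 values looked at. For normal, independent values chance gives about 1 in 20. The genes share libraries, and some groups hold only 1 or 2 counts, so that rate is a rough guide. In set 2, IDUX.2Weeks replicate 4 was the far library in 9 of the 18. It had 114 CPM of Myh7 against 9.33 to 9.98 in the others, 33.9 of Tnnt1 against 9.26 to 10.4, 17.9 of Tnnc1 against 3.30 to 5.53, and 266 of Gsn against 75.7 to 97.5. It also had 10.2 CPM of Pi16 against 4.14 to 4.43, 48.5 of Cyfip2 against 4.71 to 10.1, 2.72 of Zic1 against 0.942 to 1.11, 1.71 of Cidec against 0.188 to 0.406, and 0.621 of Emx2 against 0.270 to 0.283.

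The other such values of set 2 were mt-Atp6 in WT.2Weeks replicate 4 (35900 CPM against 6390 to 8550), Hoxd8 in WT.2Weeks replicate 5 (5.56 against 4.50 to 4.60), and Slc27a2 (0.0692) and Aspg (0.138) in IDUX.2Weeks replicate 5, where the others were at 0. In set 1 they were Cacna2d4 in WT.2Weeks replicate 1 (2.95 CPM against 0.190 to 0.920), Tbc1d1 in WT.2Weeks replicate 2 (40.1 against 17.1 to 22.0), Sbsn in WT.2Weeks replicate 2 (4.98 against 2.29 to 2.68), Hoxc9 in IDUX.2Weeks replicate 2 (0.476 against 0.0920 to 0.164) and Zic1 in IDUX.2Weeks replicate 1 (0.784 against 0.127 to 0.368).

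The DUX4 effect on Zfp385a differed between the sets by log2 -2.91 in edgeR's test of the difference.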

How the results depend on the processing

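No paired analysis was possible because replicate numbers follow accession order and pair no libraries. Of 552 genes past 2-fold between the sets (431 higher, 121 lower), relative log expression factors gave 552 (426 and 126), a mean of at least 5 CPM 222 (171 and 51), a 4-fold threshold 257 (211 and 46), no low-count filter 671 (478 and 193), IDUX libraries alone 1237 (876 and 361) and WT libraries alone 1368 (913 and 455). Leaving out 1 library gave 575 to 763 in all, 439 to 546 higher and 135 to 236 lower, the last being 200 without IDUX.2Weeks replicate 4 and 236 without replicate 5; fewer libraries overlap more rarely by construction. Of 1385 values of the 84 named genes under alternatives 103 moved by more than the spread between libraries. 10 values of 4 genes changed sign (Hoxa3, Hoxb6, Hoxb7 and Hoxc4, none of them past 2-fold), and 0 of the genes past 2-fold without overlap did.

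For the DUX4 effect in set 1, in set 2 and their difference, edgeR's calls were 2004, 572 and 1. DESeq2 gave 2763, 1010 and 42, limma voom 1952, 291 and 1, and no filter 1525, 450 and 2. The 10 libraries alone gave 3063, 512 and 4, and a Y-linked covariate 2276, 557 and 1. The Y-linked genes Ddx3y and Eif2s3y together reached at most 0.946 CPM in any whole-muscle library, so that covariate does not separate males from females. Leaving out 1 library gave 928 to 2154, 116 to 787 and 0 to 73. The 0 is without WT.2Weeks replicate 4 and the 73 without WT.2Weeks replicate 5, so the count for the difference rests on the 2 WT libraries of set 2; the cause was not tested. Counts of 3 per library limit levels under 0.325 CPM.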
